A study of Mus musculus with 2 samples.

Results

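The MYC network is a set of transcription factors that share the small partner MAX. The 9 genes described here are Myc, Max, the repressors Mxd1, Mxi1, Mxd4, Mnt and Mga, and Mlx and Mlxip of the parallel MLX branch. They were read by 21 probe sets of the 45037 on the array, that is 9 of 18193 genes with a symbol of their own, and were chosen by name with their differences on these arrays already known. Their differences are therefore a description, and no test was run. Fresh marrow of C57BL/6 mice was given either control siRNA or silncMDSC, which targets a long non-coding RNA (lncMDSC in the labels, lnc-C/EBPβ in the study), and both cultures then received GM-CSF and IL-6 for 4 days. These cytokines drive marrow cells towards myeloid-derived suppressor cells (MDSCs), a mixed population and not a cell line. Total RNA of each culture went to 1 Affymetrix mouse array, so each group is 1 array and no difference has a replicate check.

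MYC binds DNA only as a pair with MAX, mostly at the E-box, and activates genes of growth such as those for ribosome assembly, nucleotide and polyamine synthesis. MXD1, MXI1, MXD4 and MNT pair with MAX at the same sites and recruit the SIN3 and histone deacetylase corepressors, and MGA pairs with MAX inside a polycomb complex. MLX takes the place of MAX in a parallel branch, where it pairs with the glucose-sensing factor MLXIP (also called MondoA) as well as with some MXD proteins and MNT. In myeloid cells MYC is known for dividing precursors, while MXD1 is known to rise as granulocytes mature.

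The site that these pairs share, the E-box CACGTG, is shown first. Promoter windows of 300 bases (250 before and 50 after an annotated start) were taken from RefSeq on GRCm38.p6. CACGTG is its own reverse complement, so 1 search covers both strands. Of the 9 members 8 had a window, and 4 of these held the E-box, namely Max, Mxd4, Mnt and Mlx. It was held by 11.7% of the 9640 genes that had a window and were at or above the intensity floor explained below, and by 8.09% of all 27025 genes with a window. A match of these letters is a description and says nothing of binding in these cells. Capitals mark the E-box in the 4 members, with up to 20 bases on each side and none beyond the start other than the E-box itself:
Max (chr12:76962246-76962271, minus strand): cccggcgcggtgagcccggtCACGTG
Mxd4 (chr5:34187904-34187949, minus strand): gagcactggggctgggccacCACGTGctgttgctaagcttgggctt
Mnt (chr11:74830781-74830826, plus strand): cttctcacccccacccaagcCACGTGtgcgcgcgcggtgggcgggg
Mlx (chr11:101087230-101087275, plus strand): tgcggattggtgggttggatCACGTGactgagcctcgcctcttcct
The E-box began 3 bases before the start in Max, 219 before it in Mxd4, 123 before it in Mnt and 40 before it in Mlx. The windows of Mxd1, Mxi1, Mga and Mlxip held no CACGTG.

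On the arrays, Myc and Max were lower in the silncMDSC culture, and 4 of the 5 repressors were higher. Myc differed most among the 9 genes (1.72-fold lower), and Mxd4 was the repressor farthest above control (1.28-fold higher). Values are intensities on a linear scale. A difference is on the log2(intensity + 1) scale, silncMDSC minus control, and is below 0 where silncMDSC was lower. A probe set was counted when at least 1 array gave it an intensity of 78.4 or more, the median of all intensities, which is called the floor here. Of the 21 member probe sets 17 did so, all 17 on both arrays, and all 9 members had their brightest probe set, which stands for the gene, among them. Over all genes at or above the floor, 50.7% were lower and 49.3% higher. Counts of lower or higher genes in the text below are to be read beside these shares. Since the RNA came from a whole culture, fewer cells of a type and less RNA per cell cannot be told apart.

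**Figure D1:**
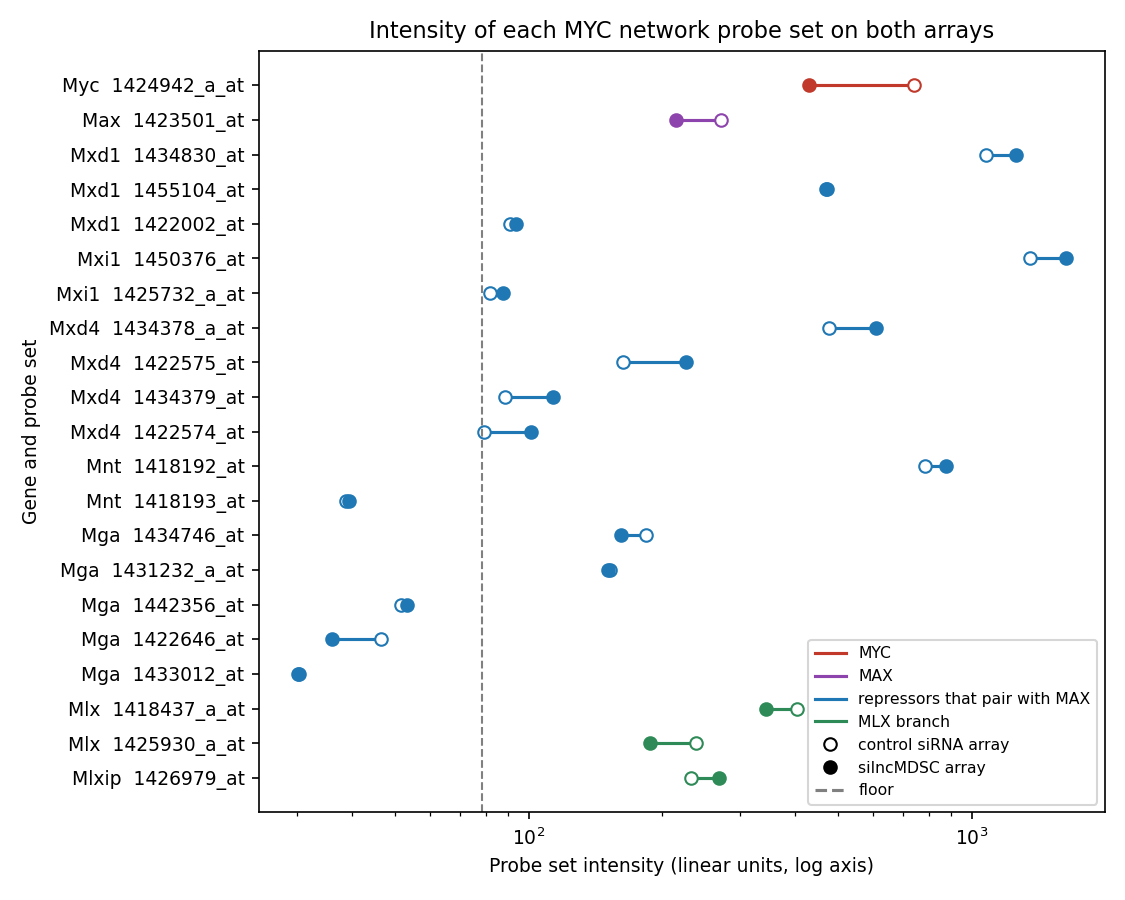
Each line joins the intensity of 1 probe set on the control siRNA array (open circle) and on the silncMDSC array (filled circle), on a log x axis, with the 21 probe sets of the 9 genes on the y axis and the floor of 78.4 as a dashed line. Myc moves left from 741 to 430, and all 4 probe sets of Mxd4 move right.

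Myc, the activator of the network, was read by 1 probe set (1424942_a_at), with 741 in control and 430 in silncMDSC, a difference of -0.78. Of the 11920 genes at or above the floor, 69 were as far below control, Myc included. Among the 1000 genes nearest to it in mean level, 5 were as far below. Among the members, Myc was the 1 that was at least 1.5-fold lower, with 0 at least 1.5-fold higher, beside 1.42% of the 11920 genes lower and 0.948% higher by that much. Because the gene was among the results already known, this place describes its size and supports nothing further.

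Max, the partner that MYC and the repressors compete for, was also lower, with 272 in control and 215 in silncMDSC (-0.33, 1.26-fold). This size was less unusual than that of Myc, since 77 of the 1000 genes nearest in level were as far below. At a smaller threshold of 0.322 on the log2 scale, Myc and Max were the 2 members lower and Mxd4 the 1 member higher, beside 6.95% of all genes lower and 4.45% higher. Both Myc and Max had only 1 probe set, so neither has a second reading on these arrays.

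The MXD repressors were higher, Mxd4 on every probe set and Mxd1 unevenly. Mxd4, an MXD protein of resting and differentiating cells, had 477 in control and 610 in silncMDSC (0.35) on 1434378_a_at. Its other 3 probe sets had 163 and 227 (0.47), 88.3 and 114 (0.36), and 79.45 and 101 (0.34). The 4 readings thus lay between 0.34 and 0.47, and for the brightest 37 of the 1000 genes nearest in level were as far above control. Mxi1, which like the others recruits SIN3, had 1358.5 in control and 1637 in silncMDSC (0.27), with 82.0 and 87.6 (0.09) on a dim probe set near the floor. Mxd1 had 1081 and 1260 (0.22) on its brightest probe set. Its other 2 were nearly level, with 471 and 469 (-0.01, but above 0 after removal of a loess trend on level or another quantile normalization) and 90.9 and 93.4 (0.04). Of the 9 MXD probe sets at or above the floor 8 were higher in silncMDSC.

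Mnt and Mga, the other partners of MAX with repressor roles, went in opposite directions. Mnt, the repressor found in most cell types, had 784 in control and 875 in silncMDSC (0.16), while 145 of the 1000 genes nearest in level were as far above control. Its second probe set was below the floor on both arrays (38.7 and 39.4). Mga, a large protein of the PRC1.6 polycomb complex, had 184 and 162 (-0.19) on 1434746_at and 153 and 151 (-0.02) on 1431232_a_at. Its 3 further probe sets did not reach the floor on either array (51.6 and 53.0, 46.4 and 36.0, 30.1 and 30.4). Mga was therefore the 1 repressor of 5 that was not higher.

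Mlx and Mlxip, the MLX branch, also parted. Mlx had 404 in control and 343 in silncMDSC (-0.24) on 1418437_a_at and 239 and 187 (-0.35) on 1425930_a_at, so both of its probe sets were lower. Mlxip, its glucose-sensing partner, had 233 and 269 (0.20) on its 1 probe set. None of these is as far as 1.5-fold, and 145 and 122 of the 1000 genes nearest in level were as far apart on the same side as Mlx and Mlxip.

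Set against each other, the activator and the repressors lay on opposite sides of 0, apart from Mga. The repressors had a median difference of 0.22 over 5 genes, and Myc minus that median was -1.01, a ratio 2.01-fold lower in silncMDSC. The ratio of Myc to a given repressor was 2.20-fold lower for Mxd4, 2.07-fold for Mxi1, 2.01-fold for Mxd1, 1.92-fold for Mnt and 1.51-fold for Mga. The ratio of Myc to Max was 1.37-fold lower. The repressor median rests on the brightest probe sets, and with all probe sets of a gene averaged it was 0.090 and Myc minus it -0.87. These are differences in ratios between the arrays and do not give the amount of any factor, since intensities of different probe sets cannot be set against each other.

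**Figure D2:**
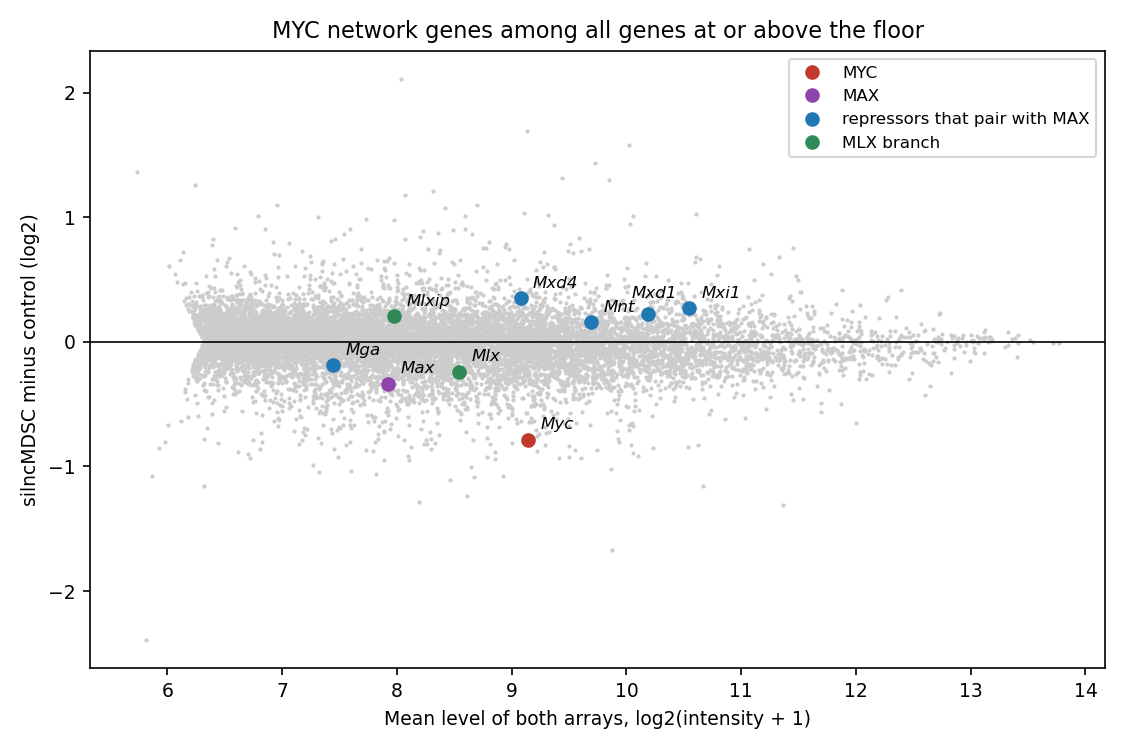
The x axis gives the mean level of a gene on the 2 arrays as log2(intensity + 1) and the y axis its log2 difference, silncMDSC minus control, for 11920 genes in grey and the 9 network genes coloured by role. Myc at -0.78 lies at the lower edge of the cloud, while the other 8 lie between -0.33 and 0.35.

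None of the core genes of the network outside the 9 was as far as 1.5-fold apart. Mycn, a MYC paralog of neural and early haematopoietic cells, had 185 in control and 200 in silncMDSC (0.11), with its other 2 probe sets below the floor. Mycl, a paralog used by dendritic cells, had 130 and 104 (-0.32) on 1 probe set, with its other 2 below the floor. Mxd3, an MXD protein of dividing cells, had 548 and 560 (0.03), and 0.19 and 0.17 on its other probe sets. Mlxipl, the second partner of MLX and best known in liver, was below the floor on both arrays (49.4 and 50.2).

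Genes that MYC is known to activate were lower almost throughout. Of 59 listed, 57 had a probe set of their own and 56 were at or above the floor. Of these 56, 51 were lower and 5 higher in silncMDSC, and the median was -0.44, where the median of all 11920 genes was -0.002. At least 1.5-fold lower were 16 of 56 (28.6%, beside 1.42% of all genes) and 37 of 56 were lower by 0.322 or more on the log2 scale (66.1%, beside 6.95%). None of the 56 was higher by that much. Ndufaf4, Nolc1 and Srm were among the results known when the list was made. Without them 53 genes were left, with 13 at least 1.5-fold lower and a median of -0.42. The whole list was chosen with earlier results of these data known, so leaving them out does not make the rest independent, and these shares are a description.

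The farthest were Ndufaf4, which helps to assemble mitochondrial complex I, with 454 in control and 186 in silncMDSC (-1.28), Nolc1, a nucleolar scaffold protein, with 517 and 239 (-1.11), and Srm, which makes spermidine, with 707 and 335 (-1.08). After them came the nucleolar GTP-binding protein Gnl3 with 942 and 492 (-0.94). The ribosome assembly factors Rrp12 (133 and 71.3, -0.88), Ppan (150 and 81.8, -0.86) and Rrs1 (964 and 539, -0.84) followed. The coactivator Pprc1 had 254 and 145 (-0.80). Rrp12 was below the floor on the silncMDSC array, so its size is the least certain. The other 8 at least 1.5-fold lower were Nop56 (-0.78), Wdr43 (-0.75), Bysl (-0.74), Noc4l (-0.72), Nop2 (-0.71), Nip7 (-0.61) and Utp20 (-0.60), all of ribosome assembly, and the membrane protein Tmem97 (-0.59).

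Sorted by function, a grouping made after the values were seen, ribosome assembly and translation genes were lower throughout. All 32 ribosome assembly genes at or above the floor were lower, from -1.11 for Nolc1 to -0.06 for Exosc5, with a median of -0.49. The 6 genes of translation and tRNA were lower too (median -0.47), among them the cap-binding factor Eif4e with 809 in control and 579 in silncMDSC (-0.48). Nucleotide, polyamine and folate genes had a median of -0.32 over 7, with Cad, the first enzyme of pyrimidine synthesis, at -0.51 and Odc1, the first enzyme of polyamine synthesis, at -0.33. Mitochondrial genes and chaperones were the least uniform, with 5 of 8 lower. Beside Ndufaf4 stood Hspd1, a mitochondrial chaperone, with 2865 and 1971 (-0.54). The RNA helicase Supv3l1, however, was at 0.26 (but -0.33 on its other probe set at or above the floor). The one-carbon enzyme Shmt2 was at 0.03. Cdk4, the cell cycle kinase, was at -0.23.

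The readings of a gene by several probe sets mostly lay on the same side. Of 33 activated targets with more than 1 probe set at or above the floor, 26 were lower on all and 1 higher on all. The other 6 had probe sets on both sides of 0, as Supv3l1 (0.26 and -0.33) and Tbrg4 (from -0.63 to 0.08) did. By probe set, 98 of 109 were lower and the median was -0.41. Some genes had a wide range on the same side, for example Ncl, the abundant nucleolar protein, from -0.88 to -0.35, and Grwd1 from -0.91 to -0.12.

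The E-box stood in the promoter window of 17 of the 52 activated targets that had one (32.7%, beside 11.7% of genes at or above the floor). The 16 of these with a difference had a median of -0.47 and the 33 without an E-box in the window -0.42, so targets with and without these letters in the window lay at a similar place. The sites in Nop2, Hspd1 and Eif4e are shown because they lie before the start in targets of different function that were among the lower ones:
Nop2 (chr6:125131803-125131848, plus strand): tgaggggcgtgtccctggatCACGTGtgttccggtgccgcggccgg
Hspd1 (chr1:55088298-55088343, minus strand): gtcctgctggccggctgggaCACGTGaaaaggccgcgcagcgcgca
Eif4e (chr3:138527184-138527229, plus strand): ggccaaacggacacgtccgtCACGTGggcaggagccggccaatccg
They began 60, 80 and 64 bases before an annotated start. Eif4e has a second E-box 228 bases before the same start.

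Genes that MYC is known to repress were higher, and most only slightly. Of 12 listed, 10 were at or above the floor, and 10 of 10 were higher with a median of 0.16 (-0.002 over all genes). All 21 of their probe sets at or above the floor were higher. At least 1.5-fold higher were 2 of the 10, beside 0.948% of all genes. They were Ndrg1, a growth-arrest gene also induced by low oxygen, with 554 in control and 957 in silncMDSC (0.79, and from 0.19 on its other probe sets), and Ccng2, an atypical cyclin of arrested cells, with 834 and 1263 (0.60, but 0.05 on its other probe set). The cyclin kinase inhibitors Cdkn2c (0.46) and Cdkn1b (0.39, and 0.40 on its other probe set) followed, while Cdkn1a was nearly level with 2276 and 2355 (0.05). Gadd45a, a stress gene, was at 0.21. Cdkn2b and Cdkn1c, both lower (-0.24 and -0.03), did not reach the floor on either array, and with no floor the median of the list was 0.10. Ndrg1 was among the results already known, and without it the median was 0.11 over 9 genes. This list too was chosen with earlier results of these data known.

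Genes that MLX and its glucose-sensing partners are known to activate were also higher on the whole, although Mlx itself was lower. Of 7 listed, 6 were at or above the floor, 5 of them were higher and the median was 0.24. The α-arrestins Arrdc3 with 583 in control and 745 in silncMDSC (0.35) and Arrdc4 with 266 and 332 (0.32, and 0.42 on its other probe set) came first, and their relative Txnip, the best known MLXIP target, had 2740 and 3348 (0.29, and 0.27 on its other probe set). The fructose kinase Khk (0.19) and the transcription factor Klf10 (0.19) were next. Pklr (-0.06, with another probe set at 0.25) was the 1 member lower, and G6pc was below the floor. None reached 1.5-fold. The windows of Arrdc4 and Khk held an E-box, and those of Txnip and Arrdc3 did not.

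Transcripts of proteins that work with MYC were slightly lower on the whole. Of 14 MYC cofactors at or above the floor, 12 were lower (10 after removal of a loess trend on level or another quantile normalization), with a median of -0.12. The acetyltransferase Kat2a had 373 in control and 266 in silncMDSC (-0.49, but 0.07 on its other probe set), the helicase Ruvbl1 330 and 238 (-0.47), and Wdr5, which anchors MYC to chromatin and which the study describes as bound by lnc-C/EBPβ, 809 and 638 (-0.34, and -0.41 on its other probe set). Actl6a, an actin-like subunit of chromatin complexes, was at -0.33 (another probe set at -0.06). In the other direction was Trrap, the scaffold of MYC-bound acetyltransferases, with 434 and 516 (0.25). Ruvbl2 was at -0.17. None of the 14 was 1.5-fold apart, and 4 (28.6%) were lower by 0.322 or more on the log2 scale, beside 6.95% of all genes.

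**Figure D3:**
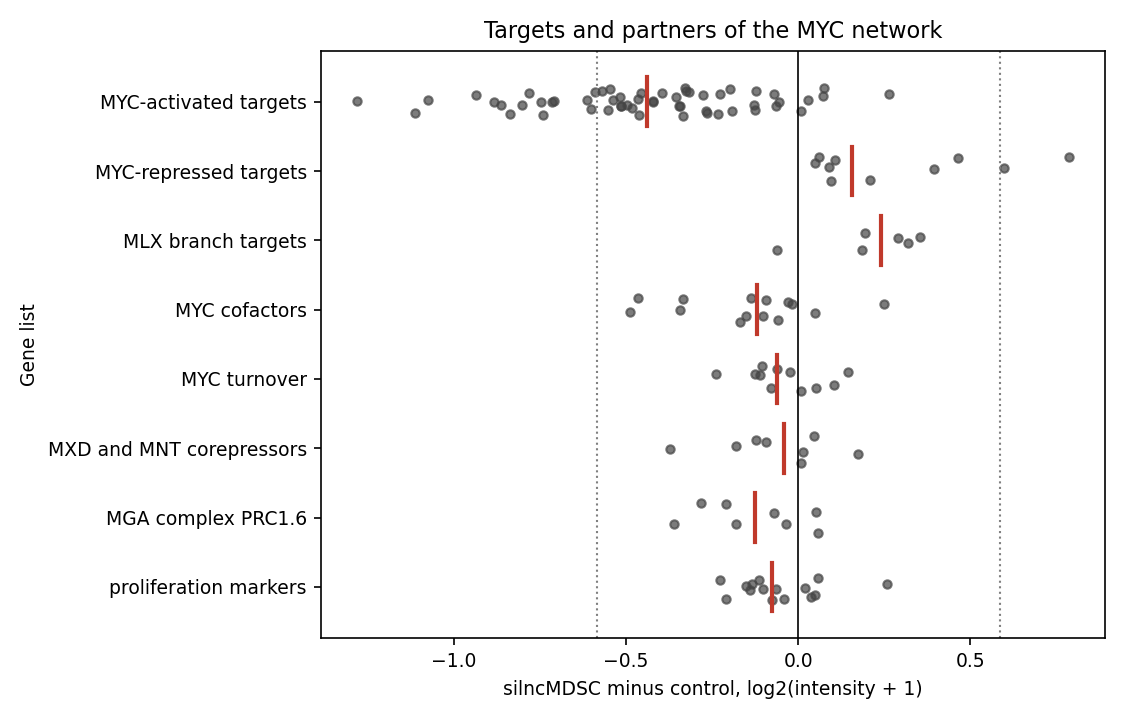
Points are genes at or above the floor in 8 lists (y axis), placed by their log2 difference between the arrays (x axis, below 0 where silncMDSC was lower), red bars are the medians and dotted lines mark 1.5-fold. The 56 activated targets lie mostly left of 0 (median -0.44) and the 10 repressed targets all right of it (median 0.16). The cofactor, turnover, corepressor and proliferation lists have medians from -0.12 to -0.04, with 12 of 14 cofactors left of 0. The medians of the MLX branch targets and the MGA complex are 0.24 and -0.13.

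The SIN3 and deacetylase corepressors of MXD and MNT had 4 of 8 lower and a median of -0.04. Hdac2 was the farthest with 687 in control and 530 in silncMDSC (-0.37), but its other probe sets ran up to 0.14. Hdac1 (-0.18), Sap30 (-0.12) and Rbbp7 (-0.09) were lower and Sin3a (0.17) and Sin3b (0.05) higher. Of 8 partners of MGA in PRC1.6, 6 were lower (5 after another quantile normalization) with a median of -0.13, among them the repressor E2f6 with 216 and 168 (-0.36, and -0.35 on its other probe set), Tfdp1 (-0.28), Pcgf6 (-0.21) and Yaf2 (-0.18), whereas Ring1 was at 0.06 and L3mbtl2 at -0.07. Factors of MYC turnover and stability had a median of -0.06 over 11 genes. Of these 7 were lower (6 after removal of a loess trend on level or another quantile normalization), beside 50.7% of all genes. Skp2 (-0.24, up to 0.03 on its other probe sets), Aurka (-0.13), Usp36 (-0.11, up to 0.15) and Huwe1 (-0.11) were lower, Trpc4ap (0.14) and Usp22 (0.11) higher, and Fbxw7, the ubiquitin ligase subunit that marks MYC for degradation, was level with 232 and 233.

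Genes of DNA replication and mitosis, which mark dividing cells, lay nearer to 0 than the activated targets. Of 15 at or above the floor, 10 were lower and 5 higher, beside 50.7% and 49.3% of all genes. Their median was -0.08, with none of their brightest probe sets as far as 0.322 apart on the log2 scale. The helicase subunits Mcm2 (-0.23, but -0.40 on its other probe set), Mcm3 (-0.21, from -0.28 to -0.11 over its probe sets), Mcm5 (-0.15, with -0.28 on another) and Mcm4 (-0.14) and the sliding clamp Pcna (-0.13) were the farthest below, and Ccnb2, a mitotic cyclin, was at 0.26. Mki67 had 1657 in control and 1571 in silncMDSC (-0.08).

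Markers of the cell types in such cultures differed along with the network genes in part. All 6 neutrophil precursor markers were lower, with a summed intensity of 23748 in control and 20022 in silncMDSC. All 7 macrophage markers were lower, with 11520 and 9114. After removal of a loess trend on level 5 of the 7 were lower, and 6 after another quantile normalization. Among the macrophage markers, Mrc1 (-0.93), Msr1 (-0.91) and Maf (-0.85) lay farthest below. C1qb (-0.25) and C1qc (-0.23) followed, while C1qa (-0.03) and Adgre1 (3070 and 3068, -0.001) were nearly level. All 8 dendritic cell markers were higher, with 16433 and 22325, and so were all 4 of the eosinophil, with 3084 and 4313. The dendritic cell sum rests mostly on genes of the MHC class II pathway. The brightest were H2-Aa (4661 and 6210), H2-Ab1 (4379 and 5618) and Cd74 (4360 and 5502). The sums of mature neutrophil markers were nearly level with 57245 and 56112 (5 of 7 lower, but 3 under either of those settings), as were those of monocyte markers with 9780 and 9972 (4 of 6 higher, 5 under either) and of mast cell and basophil markers with 5841 and 6341 (3 of 5 higher). A sum follows its brightest genes, and single markers in these lists lay farther apart. Cxcr2 was at 0.44, Ccr2 at 0.34 but Fcgr1 at -0.52, and Cpa3 at 0.48 but Fcer1a at -0.44. Progenitor (3 of 6 lower, 1232 and 1136), B cell (2 of 3 lower, 720 and 702), T and NK cell (3 of 4 higher, 4 after another quantile normalization, 1311 and 1568) and erythroid markers (1 of 2 lower, 382 and 377) had small sums. Among the T and NK cell markers, Cd3d (72.3 and 82.6) reached the floor only on the silncMDSC array. Its count as higher therefore follows from the floor. Klrd1 had 281 and 528, Cd3e 130 and 142, and Nkg7 775 and 752. The sums also take in genes below the floor, which the counts leave out. For erythroid markers these were Hba-a1 (61.85 and 53.11) and Klf1 (46.11 and 46.45). The counted Gata1 had 98.2 and 120, and Epb42 176 and 158. At least 1.5-fold lower were 3 of the 7 macrophage and 1 of the 6 progenitor markers, and at least 1.5-fold higher were 4 of the 8 dendritic cell and 1 of the 4 T and NK cell markers, beside 1.42% and 0.948% of all genes. The part of these cell types in the differences of Myc, Mxd4 or the targets was not tested. Neutrophil and monocyte markers, which MDSCs carry, were at or above the floor where they were read. Cx3cr1 (67.3 and 87.3) reached it only on the silncMDSC array, so its count as higher follows from the floor too. Reaching the floor is no check of the label, since every probe set has a value and markers of other lineages also reached it.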

How the data were processed

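Per the labels, biotin-labelled cRNA was made from 6 µg of total RNA, and the methods name the Affymetrix Mouse Genome 430 2.0 array. The authors deposited 1 column of probe set intensities per array, on a linear scale from 1 to 13983. The submitters' processing notes name RMA without a version. Since RMA gives log2 values, these linear intensities are not its direct output. The sources used here do not say how they were made. The limma test with a fold threshold that the methods name has no residual degrees of freedom with 1 array per group, so no p is given. The number of arrays limits the precision.

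After 64 control probe sets were set apart, 45037 were left, of which 34945 had 1 gene symbol, 932 several and 9160 none in the platform annotation. Through Entrez identifiers 34741 were found in RefSeq (GRCm38.p6), and no symbol changed. No probe set of the 9 members had several symbols. The probe set with the highest mean stood for its gene (18193 genes), and genes were analysed where the higher value reached the floor of 78.4, the median intensity. Differences used log2(intensity + 1), which slightly understates folds of dim probe sets. Lists not read in full held genes with several symbols or not analysed here. The summed marker intensities take each gene's brightest probe set, also where it was below the floor, while the counts of markers leave such genes out. RefSeq promoter windows were matched by symbol.

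Named were all members with every probe set, the 4 other core genes, up to 6 genes of each list with the largest differences and any at least 1.5-fold apart, except for the cell type markers, which are given as counts and sums with a few single markers. Other genes named were chosen after their values were seen. No likeness of pattern was computed, since 2 arrays give none. Members and lists were chosen with earlier results of these data known. Alternatives were a pseudocount of 16, centring, a loess trend on level (span 0.3), another quantile normalization, other probe set rules, floors and thresholds. The calculation was tested on simulated arrays without noise, which checks the code and not the spread between arrays. Python 3.11.15 with numpy 2.4.6, pandas 2.3.3 and statsmodels 0.14.6 was used.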

Additional observations from a re-analysis of the deposited data

How the results depend on the processing

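Over the alternatives, Myc ranged from -0.78 to -0.74, Max from -0.33 to -0.31 and the median of the activated targets from -0.47 to -0.36. With all probe sets of a gene averaged the repressor median was 0.090 and Myc minus it -0.87. The median of Mlx and Mlxip, which lie on opposite sides, was -0.02 and became 0.00011 with a loess trend on level removed and 0.011 after another quantile normalization, and the nearly level probe set 1455104_at of Mxd1 became 0.022 and 0.033. The repressed targets had a median of 0.30 with the floor at the 75th percentile and 0.10 with no floor. At a 2-fold threshold 0 members and 3 activated targets were lower, and at 0.322 on the log2 scale 2 members and 37 activated targets were lower and 1 member higher. Without genes named in earlier results, or with only the 50 activated targets whose probe sets lay on the same side, alternatives chosen after seeing the data, 13 and 16 activated targets were at least 1.5-fold lower. No paired analysis was possible because each group holds 1 array. No floor can be set by detection, since the deposited intensities carry no background measure.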
